A study of Mus musculus with 9 samples.

Results

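Sox17 encodes a transcription factor of the SoxF group, and Gm37587 is a non-coding feature annotated on the opposite strand across the start of Sox17. These 2 of the 55228 counted features were selected on their measured values in earlier results of the same libraries, so every value of theirs is given as a description, with no test. Uteri of 9 mice were sequenced to ask how the tissue differs after injury and after transplantation of cultured endometrial epithelial cells, with 3 libraries in each of 3 groups. All groups were WT by genotype, came from C57BL female mice of 8 weeks, and were collected on day 7. Sham libraries came from sham-operated mice. Libraries labelled injury came from uteri wounded by 10 strokes of a needle (27 gauge) and then given PBS (50 μL). For libraries labelled CRC, the same injury was followed at once by 50 μL of WT CRCs, which are endometrial epithelial cells grown by conditional reprogramming on irradiated feeder cells. CRC and injury therefore differ in what was injected, and injected cells and host tissue cannot be told apart in RNA of the whole uterus.

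SOX17 binds DNA through an HMG box and can act as an antagonist of β-catenin in Wnt signalling. In the uterus it is needed for gland formation and implantation, and works with the progesterone receptor and GATA2 upstream of Indian hedgehog in the epithelium. It is also a gene of endothelium, above all in arteries, where it acts beside Sox7 and Sox18. Gm37587 has no function known well enough to be stated.

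The counts on features came to 325384, 317754 and 327883 in sham, to 290684, 280886 and 282937 in injury, and to 288619, 289964 and 290833 in CRC. Each library had 0.776% to 0.898% of its records there, since 87.3% to 91.6% were listed in no feature. Which strand setting the counting used is not given in the sources used here. Of the counts that could be placed, 79.8% lay on the 16.6% of features with an exon on the opposite strand, and Actb held 6 counts in all. Xist held 77 counts beside 44560 on Tsix, which is annotated across it on the other strand, and Tagln held 159 beside 130075 on Gm48529. A value of Sox17 or Gm37587 is therefore what the authors counted under that name, whichever strand it stands for. Other genes had more counts on their own feature, such as Csf1r with 496 beside 14 opposite it. Of the 34 genes of the lists below that have an opposite feature and any count, 19 had more counts opposite, 13 more on their own feature and 2 the same. A feature was taken as opposite if it shared any exon base, so some cover little of the gene. Summed over all lists, own features held 5570 counts and opposite features 150046, of which 130075 lay on Gm48529. Sox17 held 137 counts in all, beside 323 on Gm37587 opposite it. Which strand's RNA these counts stand for was not tested. Without a known strand setting, counts on Sox17 are not read here as RNA of Sox17. Nor are counts on Gm37587 read as RNA of the opposite strand.

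The sham libraries differed among themselves. The chi-square per degree of freedom of sham replicate 1 was 11.9 against sham replicate 2 and 9.99 against sham replicate 3, while that pair had 4.12 and pairs within the other groups 2.20 to 3.41. In the rows outside features it was sham replicates 2 and 3 that stood apart from the other 7 libraries. They had 28622 and 24851 ambiguous records, where the others had 1751 to 6470, and 1158236 and 921934 records not aligned, where the others had 482455 to 640037. Their shares in no feature were the lowest, 87.3% and 89.0%. Values with single sham libraries left out are given below. Beyond those, the part of these differences in any comparison with sham was not tested.

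In GENCODE M21 on GRCm38, Sox17 (ENSMUSG00000025902.13) lies on the minus strand of chromosome 1 from 4490931 to 4497354, with 8 transcripts and 4772 exon bases. Gm37587 (ENSMUSG00000104238.1) lies on the plus strand from 4496551 to 4499558, with 2 transcripts and 2917 exon bases. Their exons share 804 bases, from 4496551 to 4497354. The shared bases are 16.8% of the exon bases of Sox17 and 27.6% of those of Gm37587. They hold 0 coding bases of Sox17 and are reached by 2 of its transcripts, Sox17-206 and Sox17-208, in their first exons. The other 2113 exon bases of Gm37587 lie upstream of the outermost Sox17 start.

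**Figure D1:**
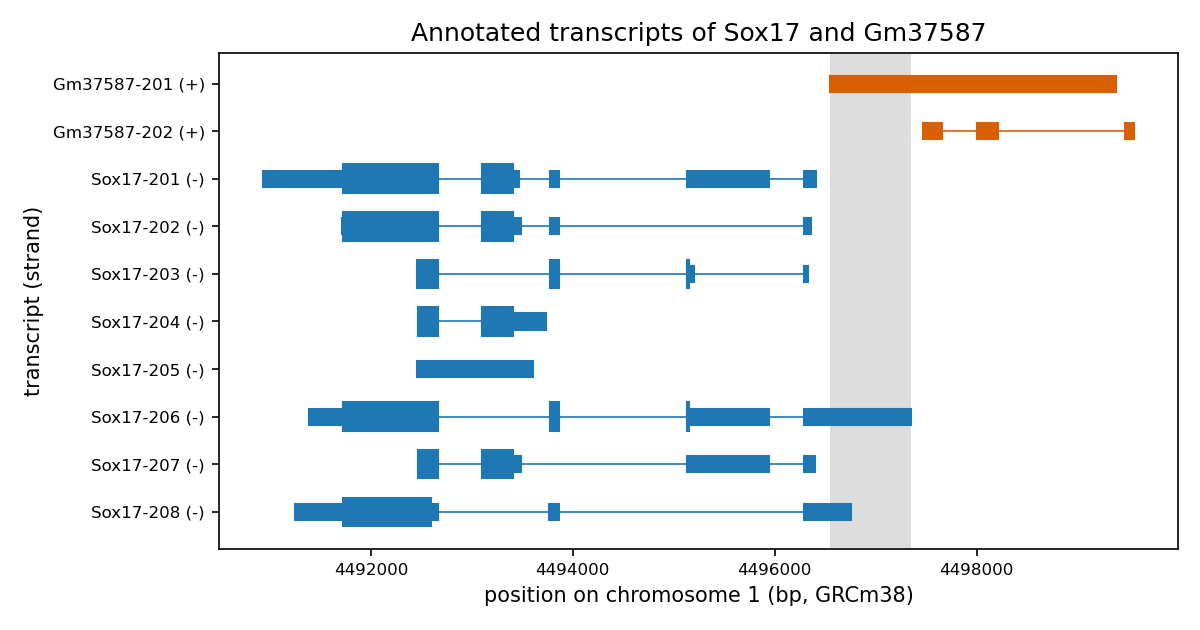
Annotated transcripts of Gm37587 (orange, plus strand) and Sox17 (blue, minus strand) by position on chromosome 1 of GRCm38 in base pairs, with exons as boxes, coding parts as taller boxes and introns as lines. The grey band marks the 804 shared exon bases, which only Sox17-206 and Sox17-208 among the Sox17 transcripts reach.

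A pair of sequences shows where the features part. The first crosses the outermost Sox17 start at chr1:4497340-4497369 on the plus strand, with the bases that also lie in an exon of Sox17 in capitals. The second is exon 1 of Gm37587-202 at chr1:4497474-4497654 on the plus strand, which no Sox17 exon overlaps. Both were read from the GENCODE transcripts.
Gm37587-201 across the Sox17 start: GCTAGCCTCTCCCGTgagagctgagaacgt
Gm37587-202 exon 1: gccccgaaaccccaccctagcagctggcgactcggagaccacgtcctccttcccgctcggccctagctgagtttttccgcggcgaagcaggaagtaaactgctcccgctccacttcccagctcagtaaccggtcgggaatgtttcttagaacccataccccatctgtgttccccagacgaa

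The 3 sham libraries held 22, 23 and 24 counts on Gm37587, those labelled injury 14, 17 and 14, and those labelled CRC 83, 60 and 66. Every CRC library was above every other library, and every injury library was below every sham library. The exact 95% Poisson intervals ran from 45.8 to 103 counts over the CRC libraries and from 13.8 to 35.7 over the sham libraries, while those of injury, 7.65 to 27.2, overlapped those of sham. Such intervals cover counting error only, since copies made by PCR were not told apart. As CPM, the count over the TMM-scaled library size brought to a common total, Gm37587 stood at 86.4 ± 8.74 in sham, 56.2 ± 6.76 in injury and 228 ± 38.1 in CRC (SD, n = 3 each).

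On Sox17 the counts were 12, 10 and 17 for sham, 10, 11 and 10 for injury, and 21, 28 and 18 for CRC. Every CRC library held more counts than any sham or injury library, but after scaling CRC and sham overlapped. As CPM the values were 41.6, 39.6 and 65.1 for sham, 37.1, 41.4 and 37.5 for injury, and 68.4, 92.1 and 58.7 for CRC. Sham replicate 3 thus stood above CRC replicate 3, and injury lay within or below the sham range. The means were 48.8 ± 14.2 in sham, 38.7 ± 2.35 in injury and 73.1 ± 17.1 in CRC (SD, n = 3 each). At 10 to 28 counts per library the counting error is wide, with an exact 95% Poisson interval of 4.80 to 18.4 for a count of 10.

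The order of group means was CRC, sham, injury for both features. For Gm37587 no neighbours in that order overlapped. For Sox17 the libraries of sham and injury overlapped, with means closer than the SD of sham. Those of CRC and sham also overlapped, though their means lay further apart than either SD, and only CRC and injury did not overlap. In the fit of all libraries the log2 fold change of Gm37587 was 1.40 (SE 0.30) for CRC against sham, 2.01 (SE 0.32) for CRC against injury and -0.62 (SE 0.34) for injury against sham. Those of Sox17 were 0.58 (SE 0.43), 0.91 (SE 0.44) and -0.33 (SE 0.47) in the same order. Without sham replicate 1 the fold changes of Gm37587 were 1.29, 1.99 and -0.69, and those of Sox17 were 0.46, 0.89 and -0.43. Without sham replicate 3, that of Sox17 was 0.81 for CRC against sham and -0.07 for injury against sham, so the latter rested mostly on that library. The CRC and injury comparisons share the sham libraries, and the CRC libraries enter 2 comparisons, so these values are not independent. Fewer cells of a type and less RNA per cell cannot be told apart in RNA of whole tissue.

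**Figure D2:**
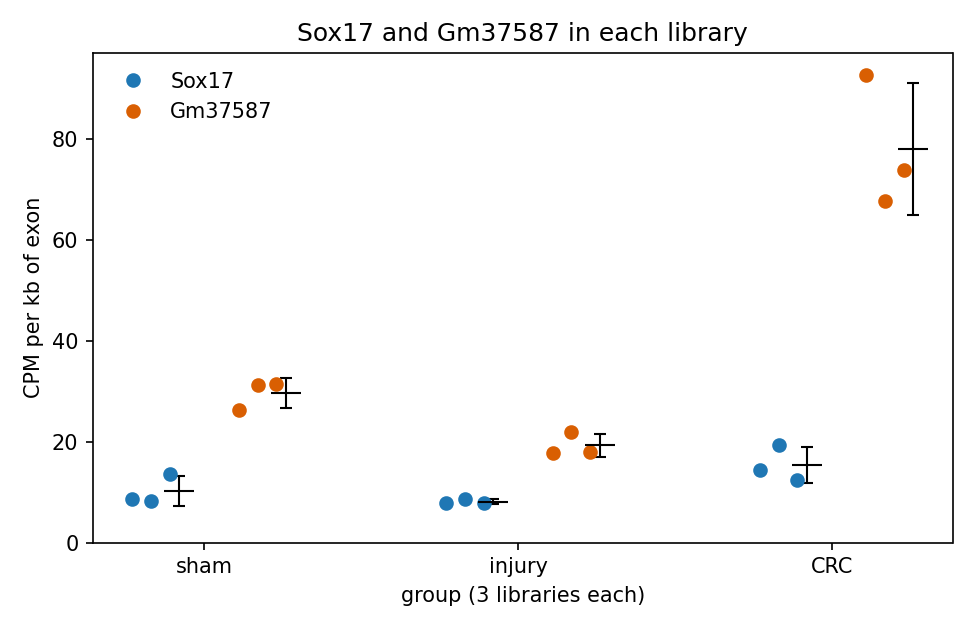
CPM per kb of exon (vertical axis) of Sox17 (blue) and Gm37587 (orange) in the sham, injury and CRC groups (horizontal axis), with a point for each library and black bars for the mean ± SD of 3 libraries. Gm37587 lies above Sox17 in each group, and its CRC libraries, at 67.6 to 92.7, lie above all others.

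Per kb of exon, Gm37587 was the higher of the pair in all 9 libraries. It stood at 29.6 ± 3.00 CPM per kb in sham, 19.3 ± 2.32 in injury and 78.1 ± 13.1 in CRC (SD, n = 3 each). Sox17 stood at 10.2 ± 2.97, 8.11 ± 0.493 and 15.3 ± 3.59 CPM per kb in the same groups. The ratio of Gm37587 to Sox17 per kb was 3.02 ± 0.727 in sham, 2.37 ± 0.137 in injury and 5.32 ± 1.59 in CRC.

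Of the counts on both features, Gm37587 held 64.7%, 69.7% and 58.5% for sham, 58.3%, 60.7% and 58.3% for injury, and 79.8%, 68.2% and 78.6% for CRC. CRC replicates 1 and 3 were above all sham and injury libraries, while CRC replicate 2 lay within the sham range. The exact Clopper-Pearson 95% interval of CRC replicate 2 was 57.4% to 77.7%, and that of sham replicate 2 was 51.3% to 84.4%. The group means were 64.3% ± 5.59, 59.1% ± 1.37 and 75.5% ± 6.39 (SD, n = 3 each). The share of sham and that of injury differed by less than the spread of the sham libraries.

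**Figure D3:**
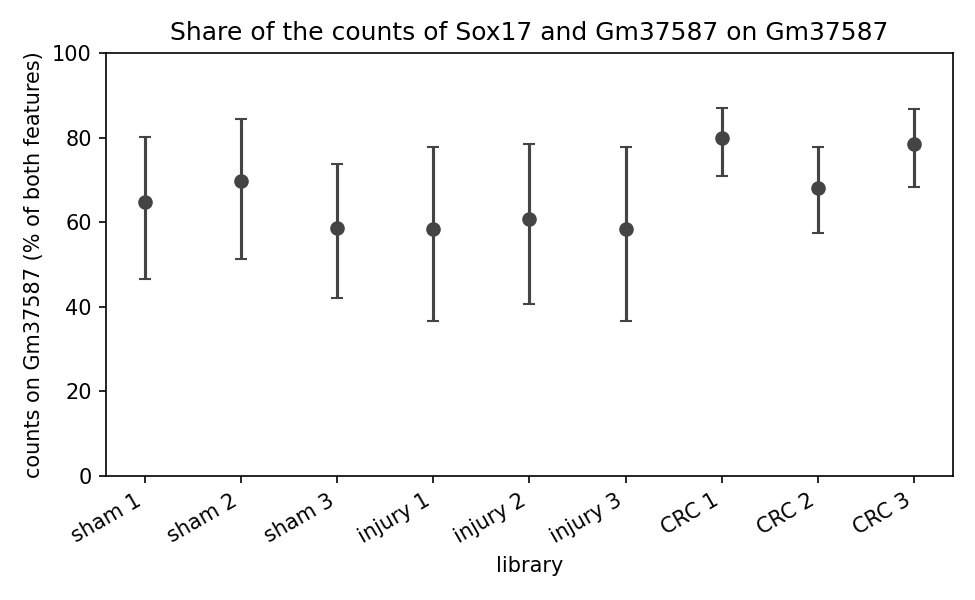
Percent of the counts on Sox17 and Gm37587 together that lay on Gm37587 (vertical axis) in each of the 9 libraries (horizontal axis), with exact Clopper-Pearson 95% intervals as bars. The points run from 58.3% to 79.8%, and the interval of each sham and injury library overlaps that of each CRC library.

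Over the 9 libraries the log2 CPM of both features correlated at r = 0.82, and at r = 0.02 once group means were subtracted. Their joint movement was thus between groups, and within groups no relation was seen in these low counts. The points share libraries and depth, and the value is a description.

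As background for counts of features, the quasi-likelihood test of edgeR, adjusted by Benjamini-Hochberg at 0.05, called 16 of 3722 tested features between injury and sham, or 0.430%, and from 3 to 154 with 1 library left out, the most without sham replicate 1. Between CRC and sham the test on all libraries called 745, or 20.0%, with 298 higher in CRC and 447 lower. Between CRC and injury it called 481, or 12.9%, with 190 higher and 291 lower. Which direction had more calls depended on the scaling: with library sizes of all records, without TMM, 69.6% of 924 calls between CRC and sham and 63.9% of 523 between CRC and injury were higher in CRC. Both features passed the filter on low counts. Their groups did not overlap for 2 of 2 features between CRC and injury, and for 1 of 2 between CRC and sham and between injury and sham. By the same rule on CPM, the groups of 33.5%, 35.5% and 15.7% of the 3722 tested features did not overlap between CRC and injury, CRC and sham, and injury and sham. Since the selection used these contrasts, nothing is read from the counts of the 2.

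On chromosome 1, 24 other annotated features lie within 500 kb of Sox17, and 15 held no count in any library. Of these neighbours 3 were tested. The pseudogene Gm6123, with 37.0 ± 13.0 CPM in sham, 53.6 ± 15.2 in injury and 57.8 ± 27.5 in CRC, was called in no comparison. Neither was Gm37277, with 41.4 ± 26.0, 58.5 ± 20.1 and 24.0 ± 8.35 CPM. Gm16041 is an antisense feature named after its values were seen, with counts of 2, 0 and 5 for sham, 0, 1 and 0 for injury, and 18, 13 and 18 for CRC. The feature passed the filter on low counts only through its CRC libraries, so its calls are descriptions and no support for a change. Its log2 fold change for CRC against sham was 2.55 (SE 0.85, adjusted p = 0.0306 by the quasi-likelihood test of edgeR, adjusted by Benjamini-Hochberg). It was higher in 3 of 3 CRC libraries. That call was lost without the filter, without sham replicates 1 or 2 and without each CRC library in turn, with a highest adjusted p of 0.148 from the same test of edgeR, adjusted by Benjamini-Hochberg. Against injury the feature was also called, with an adjusted p of 0.00253 by that test of edgeR, adjusted by Benjamini-Hochberg, and in all 17 alternatives that tested it, where the highest was 0.0268. The 49 counts of CRC against 1 of injury give a ratio of 42.8 per TMM-scaled library size, with an exact 95% interval of 7.33 to 1725 that covers counting error only. Of the protein-coding neighbours, also named after their values were seen, Rp1, Lypla1, Gm37988 and Tcea1 held 0 counts in every library, and Mrpl15 held 1. The remaining one, Rgs20, was not tested, and had 1, 0 and 6 counts for sham, 3, 5 and 1 for injury, and 3, 1 and 6 for CRC.

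Among the other SoxF genes, Sox7 and Sox18 held 0 counts in all 9 libraries. Foxa2, a gland factor, also held 0, Gata2 held 2 counts in all and Ihh held 6, with 4 in CRC replicate 1 and 2 in CRC replicate 3. None of these had an annotated opposite feature. On Pgr, the progesterone receptor, sham libraries had 67, 67 and 90 counts, injury libraries 57, 49 and 46, and CRC libraries 90, 77 and 76. Every injury library was below every sham and CRC library in counts, and Pgr was called in no comparison. At these depths 1 count is worth 3.26 to 3.96 CPM, and since Actb and Eef1a1 were also near 0, with 6 and 53 counts over all libraries, a count of 0 here sets no limit on a gene's expression.

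The lists of related genes and cell type markers were read on each gene's own feature and on the features opposite it, 187 features in all, of which 30 were tested. The background of 20.0% between CRC and sham compares with 14 of 30 called, 2 higher and 12 lower. Called list features came to 8 of 35 without CRC replicate 2, 9 of 36 without CRC replicate 3 and 9 of 134 without the filter. Over all features these fits called 505, 539 and 615 in place of 745. Between CRC and injury 4 of 30 were called, 2 higher and 2 lower, beside 12.9%. The called became 9 of 38 without sham replicate 1, 8 of 37 without sham replicate 2 and 9 of 27 with the 2 groups alone. Over all features those fits called 595, 660 and 708 in place of 481. Between injury and sham edgeR called 0 of 30, with 8 at an unadjusted p under 0.05, beside 468 of all 3722 tested features. DESeq2, which tested 7 list features there, called 1 of them, Gm48529, and 24 of all features. The median log2 fold change of the 30 was -0.64 for CRC against sham, where that of all tested features was 0.03.

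In the SOX family, 1 of the 18 own features was tested and 1 of the 4 opposite ones. On Sox4, a SoxC factor, sham libraries had 38, 63 and 62 counts, injury libraries 56, 35 and 42, and CRC libraries 40, 26 and 26. Against sham it fell by 1.03 on the log2 scale in CRC (SE 0.31). The CRC mean of Sox17 was above that of sham and the CRC mean of Sox4 was below it, and no other SOX gene of the list passed the filter on its own feature.

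In the uterine gland and progesterone list, 1 of 6 tested features was called between CRC and sham, beside 20.0% of all tested features. Nr2f2, the nuclear receptor COUP-TFII of the uterine stroma, had 38, 42 and 40 counts for sham, 39, 48 and 47 for injury, and 75, 91 and 78 for CRC. All 3 CRC libraries were above all others in counts, and the log2 fold change against sham was 0.82 (SE 0.25). Opposite Nr2f2, B130024G19Rik was the 1 feature of that list called between CRC and injury, at 0.58 (SE 0.19) on the log2 scale. Over all tested features that comparison called 12.9%.

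Among Wnt and β-catenin features, 2 of 4 tested were called between CRC and sham, 1 higher and 1 lower, beside 20.0% of all tested features. Both calls were lost when certain single libraries were left out, as given below. Sfrp2, a secreted Wnt modulator, was higher in CRC by a log2 fold change of 1.14 (SE 0.38), with 59, 28 and 32 counts in CRC and 16, 14 and 17 in sham. Ulk4, the feature opposite Ctnnb1, was lower by -0.59 (SE 0.21). Between CRC and injury Gm48159, opposite the Wnt agonist gene Rspo3, was called at 1.92 (SE 0.39), with 63, 60 and 38 counts in CRC and 9, 12 and 16 in injury. Ctnnb1 itself held 40 counts over all libraries and was not tested.

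Markers of the cell types were low on their own features. Of 16 endothelial genes 11 held a count, Egfl7 had the most, and Tie1, Cldn5, Esam, Nos3 and Robo4 were at 0. Their summed level was 226, 162 and 203 CPM for sham, 167, 196 and 139 for injury, and 169, 141 and 153 for CRC. The groups overlapped in these sums, and no endothelial feature was called. Single genes went both ways. Emcn, not tested, had 2, 3 and 3 counts for sham, 4, 4 and 4 for injury, and 8, 13 and 7 for CRC. Egfl7 had a mean of 79.3 CPM in sham, 54.7 in injury and 45.7 in CRC.

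Of 12 arterial genes 7 held a count, Notch1 had the most, and Hey1, Hey2, Nrp1, Unc5b and Cxcr4 were at 0. Their summed level was 139, 162 and 107 CPM for sham, 134, 128 and 124 for injury, and 94.5, 109 and 104 for CRC. The sums of CRC lay lower than those of injury, and overlapped sham. Most of these counts were on Notch1 and Notch4, 140 and 119 in all, and both had lower means in CRC than in injury. Of the other 5 genes with a count, Jag1 was also lower there, while Gja4, Gja5, Efnb2 and Dll4 had higher means in CRC, each on 17 counts or fewer over all libraries. No arterial gene was called on its own feature, while 0610009E02Rik, opposite Notch1, was lower in CRC against sham by -0.61 (SE 0.18) on the log2 scale.

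Of 15 epithelial genes 14 held a count, Ovol1 had the most, and Ehf was at 0. Their summed level was 125, 67.3 and 103 CPM for sham, 59.4, 75.2 and 37.5 for injury, and 127, 145 and 39.2 for CRC. The groups overlapped in these sums. Epcam held 9 counts and Krt19 held 1 over all libraries, and Gm26642, opposite Elf3, was lower in CRC against sham by -0.95 (SE 0.27).

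Of 11 stromal genes 9 held a count, Emx2 had the most, and Pdgfrb and Fbln1 were at 0. Their summed level was 174, 321 and 276 CPM for sham, 145, 147 and 143 for injury, and 65.2, 78.9 and 114 for CRC. The 3 groups did not overlap in these sums. The 3 tested genes of this list, of 11, were called lower in CRC against sham. Over all tested features 20.0% were called there, with 447 of 3722 lower. Each of the 3 stromal calls was lost when certain single libraries were left out, as given below. Which strand's RNA these low counts stand for was not tested. The direction was not shared by all genes of the stroma: Nr2f2, counted above in another list, was higher in CRC, and Thy1, not tested, had 0 counts in each sham library and 3, 2 and 2 in CRC. On the log2 scale the collagen genes Col1a1 and Col3a1 changed by -2.74 (SE 0.66) and -1.93 (SE 0.61), and the homeobox gene Emx2 by -1.38 (SE 0.48).

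All 8 smooth muscle genes held counts, with the most on Myh11, a myosin heavy chain. Their summed level was 427, 598 and 524 CPM for sham, 312, 357 and 338 for injury, and 257, 249.9 and 333 for CRC. Sham lay above the other groups, which overlapped. Of 3 own features tested, 1 was called between CRC and sham, beside 20.0% of all tested features. This was Myh11, which changed by -1.25 (SE 0.30) on the log2 scale. Tagln changed by -1.13 (SE 0.42) and Lmod1 by 0.13 (SE 0.44), neither of them called. Cnn1, which was not tested, had 12.8 ± 9.78 CPM in sham and 25.1 ± 14.9 in CRC (SD, n = 3 each). The features opposite smooth muscle genes, Gm48529, Pcsk7 and Gm11946, changed by -1.28 (SE 0.10), -1.32 (SE 0.40) and -0.88 (SE 0.16).

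Gm48529, opposite Tagln, had the most counts of any list feature, with 130075 over all libraries, and was also lower in CRC against injury by -0.94 (SE 0.10), as was Pcsk7 by -1.50 (SE 0.40). Of 12 leukocyte genes 3 held a count, and Ptprc, Lyz2, Adgre1 and Cd3e were among those at 0. Their summed level, nearly all on Csf1r, was 229, 257 and 302 CPM for sham, 234, 184 and 237 for injury, and 147, 118 and 114 for CRC. Every CRC library was below every other library, and Csf1r fell by 1.04 (SE 0.26) on the log2 scale in CRC against sham. The part of any cell type in the values of Sox17 and Gm37587 was not tested.

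The uterine markers Pgr, Hoxa11 and Emx2 held 619, 147 and 139 counts, Esr1 held 24, Hoxa10 held 32 and Wnt7a held 2. Opposite Hoxa11, Hoxa11os held 6450. All 14 list calls between CRC and sham kept their direction under each alternative that tested the feature, 16 to 18 of 18. The calls of Csf1r, Gm11946, Gm48529 and Myh11 held under all 18. The other 10 were lost under at least 1 alternative, where their highest adjusted p ran from 0.0561 to 0.320 by the quasi-likelihood test of edgeR or the Wald test of DESeq2, each adjusted by Benjamini-Hochberg.

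Leaving out single libraries ended calls between CRC and sham as follows. Col1a1 was lost without sham replicate 3, Gm26642 without sham replicate 2 or CRC replicate 3, and Col3a1 without sham replicate 2 or CRC replicates 2 or 3. Emx2 and 0610009E02Rik were lost without sham replicate 2 or CRC replicates 1 or 2, and Sfrp2 without each sham library in turn or CRC replicate 1. Sox4 and Pcsk7 were lost without sham replicate 3 or CRC replicates 2 or 3, and Nr2f2 without these or sham replicate 1. Ulk4 was lost without sham replicates 2 or 3 or each CRC library in turn. Over all alternatives that tested them, Ulk4 was called in 7 of 18 and Emx2 in 9 of 17. Between CRC and injury Pcsk7 was lost without CRC replicate 2, and B130024G19Rik without 6 of the 9 libraries in turn, while Gm48529 was called under all 18 alternatives and Gm48159 under the 17 that tested it.

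Of the tested features, 1523 averaged 30 counts or more, and 5 of these were named as the most like Gm37587 by Pearson r of log2 CPM over the 9 libraries. These were Tnfsf18 (r = 0.99), Gm15943 (r = 0.98), 4921516A02Rik (r = 0.97), 4932422M17Rik (r = 0.97) and Gm42944 (r = 0.95). Tnfsf18, a ligand of the TNF family, stood at 69.8 ± 16.6 CPM in sham, 32.4 ± 9.47 in injury and 397 ± 46.8 in CRC (SD, n = 3 each), the same order of groups as Gm37587. With group means subtracted, r fell to 0.54 for Tnfsf18, 0.45 for Gm15943, 0.04 for 4921516A02Rik, 0.67 for 4932422M17Rik and 0.44 for Gm42944.

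The 5 least like it were Rccd1 (r = -0.99), Naa35 (r = -0.99), Kctd18 (r = -0.98), D10Wsu102e (r = -0.97) and Gm48840 (r = -0.97). Rccd1 stood at 664 ± 183 CPM in sham, 1014 ± 170 in injury and 84.0 ± 26.6 in CRC (SD, n = 3 each), the reverse order. With group means subtracted, r was -0.88 for Rccd1, -0.60 for Naa35, -0.65 for Kctd18, -0.09 for D10Wsu102e and -0.14 for Gm48840. These values are descriptions of 9 libraries, and shared function or control was not tested.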

How the data were processed

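RNA of 9 uteri, freed of ribosomal RNA, was sequenced by the authors, whose processing notes name HISAT2 2.1.0 and StringTie 2.1.1. They deposited raw counts per feature, without normalization, in a format whose further rows carry the names that HTSeq writes. The strand setting is not given in the sources used here. The 5 further rows, 99.2% of all records, stayed out of library sizes and tests.

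Groups were taken from the labels. Positions came from GENCODE M21 on GRCm38, where 53462 features with 98.4% of the counts could be placed; the annotation version the paper names was not used here. The members and lists were chosen with earlier results of these data known. Features were kept by filterByExpr, library sizes were summed over the kept features and scaled by TMM, and all libraries were fitted together with edgeR 4.0.16 (robust quasi-likelihood, R 4.3.3), calling at a Benjamini-Hochberg adjusted p under 0.05. The fit was tested on simulated data. DESeq2 1.42.0 was an alternative, beside other scalings and filters, the 2 compared groups alone, a replicate block and leaving out each library. Log2 CPM used a prior count of 2. The rule named neighbours with a mean of at least 10 counts and list features that were called. Other neighbours were named after their values were seen. Figures used matplotlib 3.10.9, and intervals scipy 1.17.1.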

Additional observations from a re-analysis of the deposited data

How the results depend on the processing

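The 6 fold changes of Sox17 and Gm37587 kept their sign under all 17 alternatives each, and 99 of these 102 values moved by less than the SD of log2 CPM within groups. The other 3 came from library sizes of all records without TMM, chosen after seeing the data, which gave Gm37587 1.69 for CRC against sham and 2.21 for CRC against injury, and Sox17 0.87 for CRC against sham. That scaling moved the median of all tested features to 0.32, 0.21 and 0.09 for CRC against sham, CRC against injury and injury against sham. Relative to it Gm37587 stood at 1.37 and 2.01, and Sox17 at 0.55. It called 924 features between CRC and sham, 69.6% of them higher in place of 40.0%, with 63.9% in place of 39.5% for CRC against injury and 82.4% in place of 62.5% for injury against sham. Library sizes of all features with TMM, also chosen after seeing the data, called 746 between CRC and sham in place of 745, and left 16 and 481 in the others.

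Leaving out 1 library, the fold change of Gm37587 ran from 1.27 to 1.50 for CRC against sham, and that of Sox17 from 0.39, without CRC replicate 2, to 0.81, without sham replicate 3. For injury against sham Sox17 ran from -0.46 to -0.07, the latter without sham replicate 3. The share on Gm37587 in CRC ran from 73.4% to 79.2%. Calls ran from 505 to 894 between CRC and sham and from 329 to 660 between CRC and injury.

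Between injury and sham, the 16 calls became 154 without sham replicate 1, 3 without sham replicate 3, 8, 3 and 4 without injury replicates 1, 2 and 3, 10 without CRC replicate 3, and 6 with the 2 groups alone. List calls there ran from 0 to 2, the highest without sham replicate 1 (Hoxa11os and Myh11), and DESeq2 gave 1. Between CRC and injury the 4 list calls ran from 3 to 9, with 9 and 8 without sham replicates 1 and 2. Between CRC and sham the 14 ran from 8 to 16, with 8 and 9 without CRC replicates 2 and 3. These ranges cover 15 alternatives, which did not all test the same 30 list features. With 1 library left out 35 to 38 were tested, and by DESeq2 between injury and sham 7. The 3 others change the filter or the groups fitted: between CRC and sham no filter called 9 of 134, at least 10 counts in every library 9 of 18, and the 2 groups alone 11 of 29. The cause was not tested.

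The replicate block gave 5 calls between injury and sham, 682 between CRC and sham and 425 between CRC and injury, and a fold change of 1.39 for Gm37587 and 0.58 for Sox17 between CRC and sham. Libraries with the same number did not pair: their deviations from the group means correlated from -0.10 to 0.08 over 9 pairs. Of the list calls between CRC and sham, the block lost Ulk4 and Emx2. DESeq2 lost these and Sfrp2, the 2 groups alone lost Emx2, and upper-quartile scaling and at least 10 counts in every library lost Ulk4. No filter lost 0610009E02Rik, Col3a1, Emx2, Nr2f2, Pcsk7, Sfrp2 and Ulk4, and sizes of all records 0610009E02Rik, Emx2, Gm26642, Pcsk7, Sox4 and Ulk4. With 10 to 28 counts, depth limits Sox17 more than Gm37587.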
